A study of Mus musculus with 6 samples.

Results

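Collagen transcripts were followed in whole mouse ovaries at postnatal day 14. A collagen gene was any row of the deposited table whose symbol had the form Col, number, a, number, and 43 of 37924 genes met this rule. They were divided into 11 fibrillar, 8 basement membrane (types IV, XV and XVIII) and 24 other collagen genes. The 35 with a mean of at least 0.5 FPKM over the 6 libraries were tested. FPKM is a fragment count scaled to transcript length and library size, so levels can be compared between genes of different length.

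All mice were of the strain background C57BL/6J/129S7/SvEvBrd and homozygous for a floxed allele. The 3 control libraries came from mice without Cre. The 3 conditional knockout libraries, called cKO here, were from mice that carried Gdf9iCre as well, a Cre transgene under the control of the Gdf9 promoter, which is active in oocytes. Each library was a pool of 1 ovary from each of 3 mice, so SDs describe the spread between pools. The library numbers in the labels form 1 run for the 3 controls and cKO 1 and a later run for the other two cKO pools. The labels do not explain these numbers. If they mark a batch, batch and genotype cannot be told apart for cKO 2 and cKO 3. With the 3 controls set against cKO 1 alone, the median log2 change was 0.59 for collagen genes and 0.079 for all genes tested. Counts of passing genes for that comparison are listed only among the processing alternatives at the end. They borrow the spread of the controls, since 1 pool has no spread of its own, and no gene is called from them. In whole ovary, a change in the number of cells of a type and a change in RNA per cell cannot be told apart.

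Collagens are secreted proteins whose chains wind by threes into a triple helix. Fibrillar collagens bundle into fibrils that give connective tissue its strength, whereas type IV collagen forms the mesh of basement membranes. In the ovary, fibrils fill the stroma and the theca, and a basement membrane surrounds the granulosa cells of every follicle and is rebuilt as the follicle grows. Other collagens decorate fibrils, form beaded filaments around cells or span the cell membrane.

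Most collagen transcripts lay higher in cKO ovaries, and the clearest differences were in chains of moderate or low level rather than in the abundant fibrillar ones. In cKO ovaries 8 of 35 collagen genes rose (22.9%), against 2.24% of the 14934 genes tested. They were Col4a3, Col4a4, Col4a5 and Col18a1 of basement membranes, Col8a1 and Col8a2 of short-chain networks, Col6a6 and Col23a1. Only Col15a1 fell, 1 of 35, where 2.09% of all genes tested fell. The remaining 26 did not pass, although 16 of these had an unadjusted p below 0.05. At that level by limma, 22 of the 35 were higher and 3 lower, against 14.5% and 9.80% of all genes tested. Log2 changes were positive for 31 collagen genes and negative for 4, compared with 8735 and 6199 of all genes tested. Their median log2 change was 0.39, beside 0.05 over all genes tested.

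**Figure D1:**
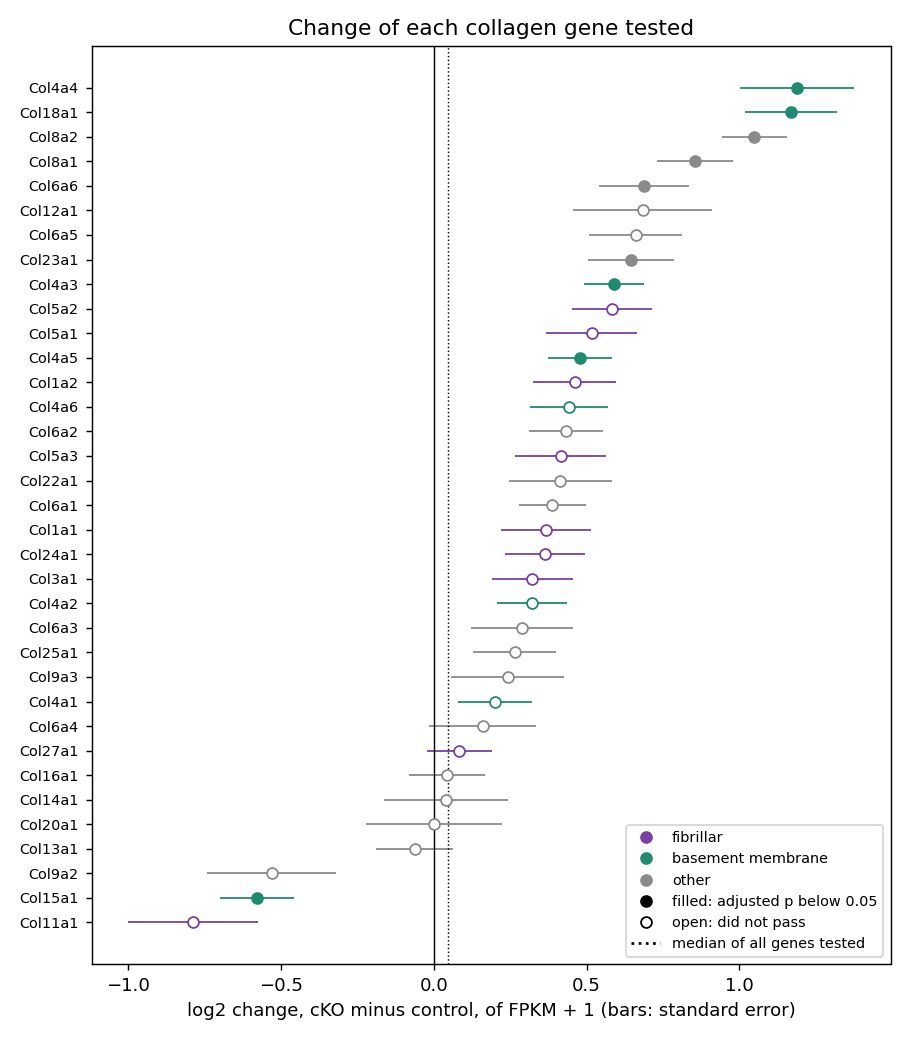
Log2 change (cKO minus control, of FPKM + 1) of each of the 35 collagen genes tested, with its standard error, coloured by group; filled points passed at an adjusted p below 0.05. Col4a4, Col18a1 and Col8a2 lie furthest to the right, between 1.05 and 1.19. Col11a1, Col15a1, Col9a2 and, at -0.06, Col13a1 lie left of 0.

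All 3 cKO pools exceeded all 3 control pools for 21 collagen genes, 60% of those tested against a background of 18.0%. All 3 lay below the controls for Col11a1 and Col15a1, 5.71% against 12.0%. Library cKO 1 was the highest of the cKO pools for 16 of the 21 genes and cKO 2 for the other 5. The share of summed FPKM held by mitochondrial transcripts was 7.31% in cKO 1, 13.9% in cKO 2, 10.7% in cKO 3 and 11.9% to 14.2% in the controls. After the libraries were rescaled to equal sums without mitochondrial genes, 7 collagen genes rose and none fell by limma, beside 454 and 306 of 14919 genes. At an unadjusted p below 0.05, 22 collagen genes were higher and 3 lower, beside 2798 and 1144 of all genes. The calls also depended on single pools. By limma no collagen gene passed without control 1, control 2 or cKO 1. Of all 14934 genes tested 1, 0 and 0 then rose, and 4, 2 and 2 fell. In those fits 16, 16 and 15 collagen genes were higher at an unadjusted p below 0.05, beside 1447, 1347 and 1555 of all genes. Without cKO 2, 2 collagen genes and 40 of all genes rose.

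There were 6 collagen genes above 100 FPKM (Col1a2, Col3a1, Col6a1, Col1a1, Col6a2 and Col4a1), 11 between 10 and 100, 18 between 0.5 and 10, and 8 below 0.5. The 6 highest held 70.9% to 73.9% of all collagen FPKM in every pool. Summed over the 43 genes, collagen came to 1396, 1433 and 1431 FPKM in the control pools and to 2172, 1620 and 1690 FPKM in the cKO pools, and the groups did not overlap. As a share of non-mitochondrial FPKM this was 0.268% ± 0.011 in control and 0.359% ± 0.056 in cKO (SD, n = 3).

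**Figure D2:**
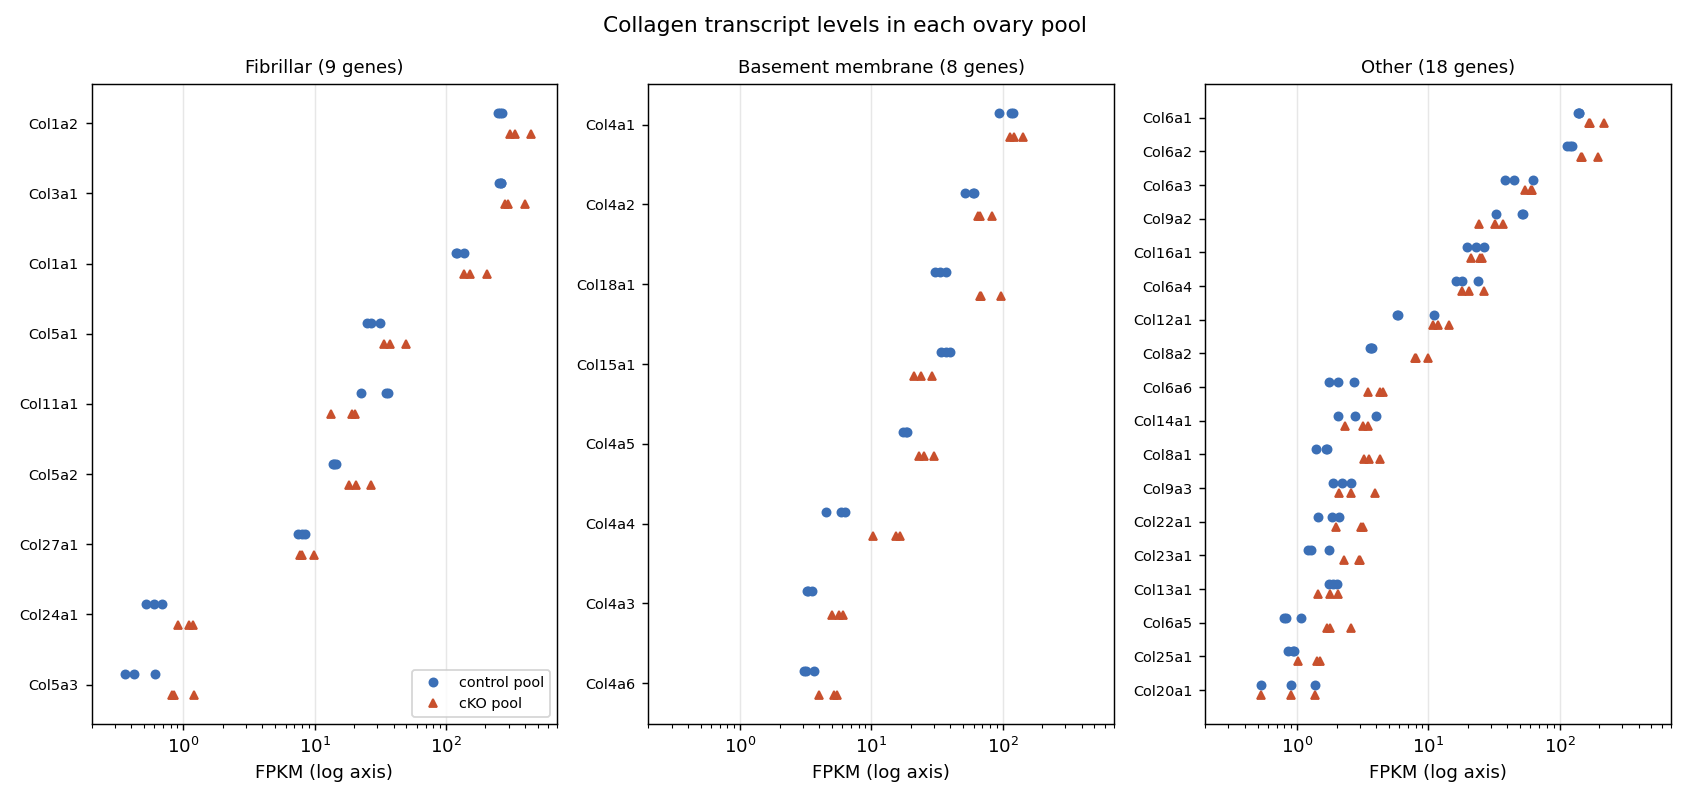
FPKM of the 35 tested collagen genes in each pool on a log axis, sorted by mean within each group; circles are the 3 control pools and triangles the 3 cKO pools. Controls lie close together for Col1a2 (251 to 269 FPKM) and Col3a1 (252 to 262 FPKM), while the cKO pools spread to 445 and 400 FPKM.

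The major fibrillar chains are those of type I collagen, Col1a1 and Col1a2, and of type III, Col3a1. Col1a2 measured 251, 261 and 269 FPKM in control and 445, 308 and 336 FPKM in cKO, libraries always being listed in the order 1, 2, 3. Every cKO pool was above every control, yet it did not pass (log2 change 0.46 ± 0.14, standard error; adjusted p 0.0975). Col1a1 measured 119, 122 and 137 FPKM in control and 204, 137 and 153 FPKM in cKO, so that control 3 and cKO 2 all but met (log2 change 0.37, adjusted p 0.182). Col3a1, the fibril partner of type I in soft tissue, measured 252, 261 and 262 FPKM in control and 400, 283 and 298 FPKM in cKO (log2 change 0.32, adjusted p 0.189). In all 3 genes cKO 1 stood well above the other cKO pools.

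The proportions among these 3 genes differed little. The ratio of Col1a2 to Col1a1 was 2.07 ± 0.09 in control and 2.21 ± 0.04 in cKO (SD, n = 3), without overlap, and that of Col3a1 to Col1a1 was 2.06 ± 0.12 and 1.99 ± 0.06, with overlap. The genes lie at chr11:94936224-94953042 (Col1a1), chr6:4504814-4541544 (Col1a2) and chr1:45311538-45349706 (Col3a1). Col5a2 lies 24.6 kb from Col3a1, tail to tail.

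Type V collagen is the minor fibrillar collagen that co-assembles with type I and limits fibril width. Col5a2 measured 14.4, 14.1 and 13.9 FPKM in control and 26.8, 20.7 and 18.4 FPKM in cKO, with no overlap. Its log2 change of 0.58 ± 0.13 (standard error) had an adjusted p of 0.0535, just outside the threshold of 0.05. Col5a1 measured 24.9, 26.9 and 31.2 FPKM in control and 49.6, 37.6 and 33.8 FPKM in cKO (log2 change 0.52, adjusted p 0.095). Col5a3, the remaining type V chain, was far lower, at 0.36, 0.42 and 0.61 FPKM in control and 1.20, 0.82 and 0.84 FPKM in cKO (adjusted p 0.146). All 3 type V genes had their highest value in cKO 1.

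Col11a1, a fibrillar chain best known from cartilage, went the opposite way. It measured 35.1, 36.2 and 22.5 FPKM in control and 19.2, 13.3 and 20.1 FPKM in cKO. The groups did not overlap, but control 3 lay nearer to the cKO pools than to the other controls. The log2 change was -0.79 (standard error 0.21, adjusted p 0.0818), and only without control 3 or with array weights did it pass (adjusted p 0.033 and 0.0254). The ratio of Col5a1 to Col11a1, chains of 2 collagens that share a fibril-limiting role, was 0.95 ± 0.38 in control and 2.36 ± 0.61 in cKO (SD, n = 3).

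Col24a1 measured 0.60, 0.52 and 0.69 FPKM in control and 1.17, 1.10 and 0.91 FPKM in cKO (adjusted p 0.146). Col27a1 overlapped between groups at 7.52 to 8.46 FPKM in control and 7.79 to 9.81 FPKM in cKO. Of 9 fibrillar genes tested none passed by limma, with 7 higher and 1 lower at an unadjusted p below 0.05, where 14.5% and 9.80% of all genes tested were. Their median log2 change was 0.37. Col11a2 and Col2a1, the latter the main cartilage collagen, reached at most 0.59 and 0.03 FPKM and were not tested.

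Basement membrane collagens held most of the passing calls: of 8 genes 4 rose, 1 fell and 3 did not pass, with a median log2 change of 0.46. Type IV collagen has 6 chains encoded by 3 pairs of genes, each pair arranged head to head. The chains of the first pair, Col4a1 and Col4a2, assemble together in nearly all basement membranes. Those of the other pairs enter networks of more restricted tissues.

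Col4a1 measured 119, 116 and 94.2 FPKM in control and 142, 122 and 114 FPKM in cKO. The groups overlapped and it did not pass (log2 change 0.20, adjusted p 0.36). Its partner Col4a2 measured 60.2, 59.8 and 51.4 FPKM in control and 82.9, 65.1 and 67.5 FPKM in cKO (log2 change 0.32, adjusted p 0.143). Both genes had their lowest value in control 3. At chr8:11198423-11312826 and chr8:11312805-11449287 their first exons overlap by 22 bases on opposite strands, so a few fragments could be shared between them.

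Col4a4 had the largest log2 change of all collagen genes tested. It measured 6.30, 5.90 and 4.48 FPKM in control and 15.5, 16.6 and 10.3 FPKM in cKO, a ratio of means of 2.54. The log2 change was 1.19 (standard error 0.19, adjusted p 0.0254). Col4a3 measured 3.29, 3.24 and 3.53 FPKM in control and 5.63, 6.02 and 5.04 FPKM in cKO, and it rose by 0.59 on the log2 scale with a standard error of 0.10 (adjusted p 0.0297). For neither gene was cKO 1 the highest pool: cKO 2 was. The ratio of Col4a4 to Col4a3 was 1.92, 1.82 and 1.27 in the controls and 2.75, 2.75 and 2.04 in the cKO pools.

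The 2 genes lie back to back on chromosome 1, Col4a4 at chr1:82448423-82586849 on the minus strand and Col4a3 at chr1:82586921-82722059 on the plus strand. Only 71 bases separate their annotated starts in GENCODE M21. That stretch, shown because both genes start from it and both rose, is chr1:82586850-82586920 of GRCm38.p6 (the assembly of mm10), read from the minus strand towards Col4a4. Of it 69% is G or C. Col4a3 shares 563 exon bases with C430014B12Rik on the opposite strand, so its value may include fragments of that gene.
Col4a4 and Col4a3 start: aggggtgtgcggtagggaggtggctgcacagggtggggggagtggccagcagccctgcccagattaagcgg

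On the X chromosome Col4a5 and Col4a6 are separated by 1308 bases. Col4a5 measured 17.5, 18.4 and 18.8 FPKM in control and 29.9, 25.1 and 22.9 FPKM in cKO, and it rose by 0.48 with a standard error of 0.10. Its adjusted p of 0.0498 lay just inside the threshold. It moved out to 0.0532 with libraries centred on the median and to between 0.0517 and 0.195 when any 1 pool was left out. Col4a6 measured 3.19, 3.09 and 3.65 FPKM in control and 5.50, 5.16 and 3.99 FPKM in cKO (log2 change 0.44, adjusted p 0.095). Neither gene overlapped between groups, and their ratio stayed at 5.54 ± 0.41 in control and 5.35 ± 0.44 in cKO (SD, n = 3). Set against the ubiquitous Col4a1, the ratio of Col4a5 was 0.169 ± 0.027 in control and 0.206 ± 0.004 in cKO, and that of Col4a4 was 0.050 ± 0.003 and 0.112 ± 0.023.

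Collagens XV and XVIII are closely related proteoglycan collagens of the basement membrane zone, and the tail of collagen XVIII is the source of endostatin, an inhibitor of vessel growth. They moved in opposite directions. Col18a1 measured 33.2, 30.7 and 36.7 FPKM in control and 97.3, 66.7 and 68.8 FPKM in cKO, and it rose by 1.17 on the log2 scale with a standard error of 0.15 (adjusted p 0.0169). Col15a1 measured 33.9, 37.2 and 39.8 FPKM in control and 28.8, 23.7 and 21.2 FPKM in cKO, and it fell by 0.58 with a standard error of 0.12 (adjusted p 0.0456). The 2 genes were thus near equal in control ovaries, with a ratio of Col18a1 to Col15a1 of 0.98, 0.83 and 0.92. In cKO ovaries the ratio was 3.38, 2.81 and 3.25, the widest separation among the 13 chain ratios computed. A ratio within a library does not depend on how the library was scaled. The call for Col15a1 did depend on it, with adjusted p-values of 0.0704 when centred on reference genes and 0.0665 when rescaled without mitochondrial genes. It was also lost when any 1 pool was left out, at 0.0845 to 0.185.

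Col18a1 lies at chr10:77052178-77166548 on the minus strand and has more than 1 annotated start, so gene-level FPKM cannot tell its short and long forms apart. Col15a1 lies at chr4:47208161-47313167 on the plus strand and shares 14 exon bases with Gm12426. To set this oppositely moving pair side by side, 100 exon-free bases upstream of each gene are given, chr10:77166549-77166648 (minus strand) and chr4:47207912-47208011 (plus strand), from RefSeq promoters of GRCm38.p6. Capitals mark GGGCGG, the core of a GC box, or its reverse complement CCGCCC. Both strands were also searched for CCAAT and for TATAAA, the CCAAT box and a TATA box, and neither occurs in these stretches. CCAAT can share bases with the GC box letters and TATAAA cannot.
Col18a1: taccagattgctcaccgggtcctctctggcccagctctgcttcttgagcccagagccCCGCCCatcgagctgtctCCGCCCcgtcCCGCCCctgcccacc
Col15a1: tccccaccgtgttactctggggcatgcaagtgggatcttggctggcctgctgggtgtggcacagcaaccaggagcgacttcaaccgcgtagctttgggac

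The letters GGGCGG occur on 1 strand or the other in 23 of 38 collagen promoter windows (60.5%), each of 250 bases before and 50 after a start, and in 35.7% of all 32851 windows of that length. CCAAT was present in 34.2% of collagen windows against 37.4% of all, and TATAAA in 13.2% against 13.6%. These windows cover 35 of the 43 collagen genes. A match describes the letters only.

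**Figure D3:**
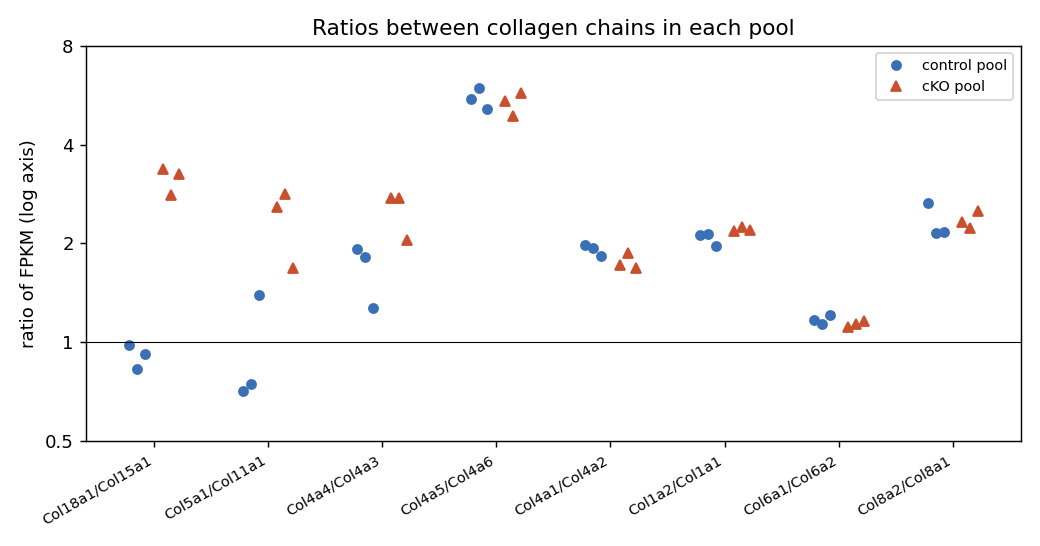
Ratio of FPKM between 2 collagen chains in each pool, on a log axis, for 8 pairs; circles are control pools and triangles cKO pools. The ratio of Col18a1 to Col15a1 separates the groups widely. That of Col5a1 to Col11a1 does so by less, with control 3 at 1.39 and cKO 3 at 1.68. For Col4a4 to Col4a3 the gap is narrow, between control 1 at 1.92 and cKO 3 at 2.04. The ratios of Col4a5 to Col4a6, Col4a1 to Col4a2, Col6a1 to Col6a2 and Col8a2 to Col8a1 overlap.

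Type VIII collagen, a short-chain collagen that builds hexagonal lattices, is encoded by Col8a1 and Col8a2. Both genes rose. Col8a2 measured 3.72, 3.57 and 3.65 FPKM in control and 9.96, 7.89 and 8.11 FPKM in cKO. It had the smallest p of any collagen gene tested (log2 change 1.05, standard error 0.11, adjusted p 0.0104). Col8a1 measured 1.40, 1.66 and 1.69 FPKM in control and 4.28, 3.55 and 3.22 FPKM in cKO (log2 change 0.85, standard error 0.12, adjusted p 0.0212). Ratios of means were 2.37 and 2.33, and the ratio of Col8a2 to Col8a1 overlapped between groups (2.32 ± 0.29 and 2.36 ± 0.15, SD, n = 3). The genes lie on chromosomes 4 and 16. The related Col10a1 of growth plate cartilage reached at most 0.074 FPKM.

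The 2 chains changed by nearly the same factor from different chromosomes, so the 100 exon-free bases upstream of each are shown, with GGGCGG or CCGCCC in capitals. They are chr16:57754738-57754837 on the minus strand (Col8a1, 67% G or C) and chr4:126286693-126286792 on the plus strand (Col8a2, 80%), from RefSeq promoters of GRCm38.p6.
Col8a1: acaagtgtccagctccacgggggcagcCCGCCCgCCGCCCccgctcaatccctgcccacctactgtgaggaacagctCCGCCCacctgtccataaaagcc
Col8a2: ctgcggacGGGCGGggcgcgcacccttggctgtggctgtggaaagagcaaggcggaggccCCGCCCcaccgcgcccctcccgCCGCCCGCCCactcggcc

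Type VI collagen forms beaded filaments that connect cells to the matrix. Its main chains are Col6a1, Col6a2 and Col6a3. Col6a1 measured 141, 141 and 139 FPKM in control and 218, 167 and 170 FPKM in cKO (log2 change 0.39, adjusted p 0.0896). Col6a2 measured 121, 124 and 114 FPKM in control and 196, 147 and 147 FPKM in cKO (log2 change 0.43, adjusted p 0.0876). Both were close together in the control pools and separated the groups without passing. The genes are neighbours on chromosome 10, 85.2 kb apart, and their ratio was 1.17 ± 0.04 in control and 1.14 ± 0.03 in cKO (SD, n = 3).

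Col6a3 did not follow them. It measured 38.5, 44.7 and 62.9 FPKM in control and 60.1, 54.2 and 61.2 FPKM in cKO, with control 3 the highest pool of all (adjusted p 0.339). Among the later-described chains on chromosome 9, Col6a6 measured 1.74, 2.07 and 2.70 FPKM in control and 4.27, 4.52 and 3.46 FPKM in cKO, and it rose by 0.69 with a standard error of 0.15 (adjusted p 0.0472). Col6a5, 27.9 kb away, measured 0.83, 0.79 and 1.07 FPKM in control and 1.69, 2.58 and 1.79 FPKM in cKO (log2 change 0.66, adjusted p 0.0572). Col6a4, next to Col6a5, overlapped at 16.2 to 23.7 FPKM in control and 18.1 to 26.7 FPKM in cKO. These 3 chains are paralogs, and fragments of alike sequence could be divided among them.

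The fibril-associated collagens, which sit on the surface of fibrils without forming any themselves, showed no passing gene. Of 7 tested, 2 were higher and 1 lower by limma at an unadjusted p below 0.05, where 14.5% and 9.80% of all genes tested were. The median log2 change was 0.04 and every gene overlapped between groups. Col9a2, a type IX chain, was the most abundant at 53.1, 51.3 and 33.0 FPKM in control and 37.1, 24.2 and 32.2 FPKM in cKO (log2 change -0.53, adjusted p 0.181). Control 3 lay among the cKO pools. Col12a1 measured 5.87, 5.82 and 11.1 FPKM in control and 14.5, 11.8 and 10.8 FPKM in cKO. Its log2 change was 0.68 with an adjusted p of 0.127, and without control 3 it was 0.96 with an adjusted p of 0.0185.

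The other fibril-associated genes were Col16a1 (19.8 to 26.7 FPKM over the 6 pools), Col14a1 (2.04 to 4.01), Col9a3 (1.89 to 3.92), Col22a1 (1.44 to 3.16) and Col20a1 (0.53 to 1.38). Of 8 marker genes of fat tissue, 7 were highest in control 3. The list summed to 55.1 FPKM there, against 16.0 and 17.6 FPKM in the other controls and 17.6 to 18.4 FPKM in cKO. The exception was Plin1, which encodes a coat protein of lipid droplets. It measured 6.18, 6.79 and 4.95 FPKM in control and 13.9, 10.6 and 11.8 FPKM in cKO, and it rose by 0.91 (adjusted p 0.0231). Without Plin1, left out after its values were seen, the list summed to 9.86, 10.8 and 50.2 FPKM in control and 4.54, 7.88 and 5.81 FPKM in cKO. Every cKO pool was then below every control. Lep, which encodes the fat hormone leptin, read 0 in control 1, cKO 1 and cKO 3. The part of such tissue in the control 3 values of Col6a3 and Col12a1 was not tested.

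**Figure D4:**
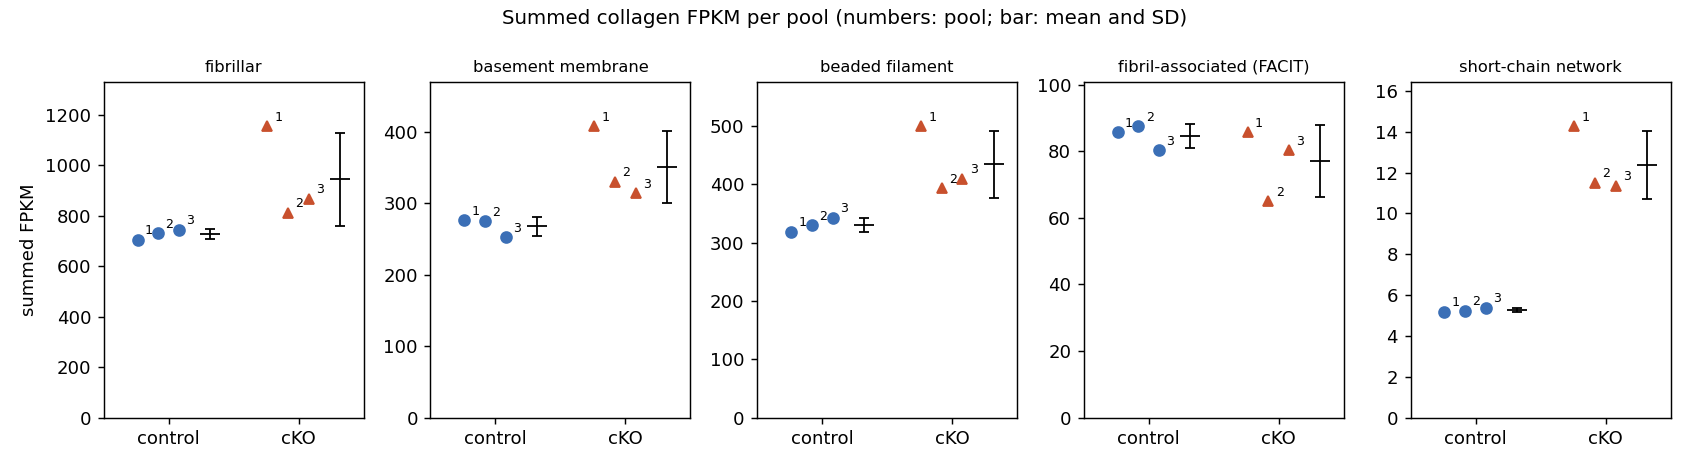
Summed FPKM of 5 collagen classes in each pool, numbered 1 to 3 within each group, with the mean and SD beside them; all axes start at 0. The short-chain class separates the groups most, at 5.19 to 5.38 FPKM in control and 11.3 to 14.3 FPKM in cKO, and the fibril-associated class overlaps.

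Transmembrane collagens are anchored in the plasma membrane and can be shed. Col23a1 measured 1.27, 1.21 and 1.75 FPKM in control and 3.04, 2.95 and 2.30 FPKM in cKO, and it rose by 0.64 with a standard error of 0.14. Its adjusted p of 0.0496 was near the threshold, and it passed in 6 of 18 alternative analyses. With a minimum mean of 2 FPKM in place of 0.5 it was 0.0633. Col25a1 separated the groups narrowly, at 0.86 to 0.95 FPKM in control and 1.01 to 1.49 FPKM in cKO (adjusted p 0.279). Col13a1 overlapped at 1.44 to 2.05 FPKM.

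Of the 8 collagen genes too low for the test, Col7a1, which forms the anchoring fibrils of epithelia, was the only one whose groups did not overlap. It read 0.20, 0.21 and 0.15 FPKM in control and 0.51, 0.84 and 0.50 FPKM in cKO. With a mean of 0.40 FPKM it lay just below the limit of 0.5, as Col11a2 did at 0.40, while Col5a3 at 0.71 and Col24a1 at 0.83 lay just above. Col5a3 met the limit through its cKO pools, with means of 0.46 FPKM in control and 0.95 FPKM in cKO. It is among the 21 genes whose cKO pools all exceeded the controls. The other untested genes were Col2a1, Col9a1, Col10a1, Col17a1, Col19a1 and Col28a1, all at or below 0.60 FPKM in every pool. The table lists the gene now called Col26a1 under its older symbol Emid2, which the symbol rule does not reach. It was looked up after the values were seen and measured 19.5, 17.9 and 20.1 FPKM in control and 41.9, 36.8 and 33.0 FPKM in cKO (log2 change 0.92, adjusted p 0.0119).

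New collagen chains are hydroxylated, glycosylated and folded in the endoplasmic reticulum, then trimmed and crosslinked outside the cell. Of 29 genes tested for these steps, 1 rose (3.45%, near the 2.24% of all genes tested) and 1 fell (2.09% of all genes tested fell), and the median log2 change was 0.04. Bmp1, whose protease removes the C-terminal propeptide of fibrillar collagens, measured 26.3, 26.9 and 27.6 FPKM in control and 38.5, 39.8 and 36.4 FPKM in cKO, and it rose by 0.49 (adjusted p 0.0213). Plod2, a lysyl hydroxylase gene for crosslink formation, measured 96.9, 109 and 77.0 FPKM in control and 54.8, 57.6 and 55.5 FPKM in cKO, and it fell by 0.73 (adjusted p 0.0307).

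The next 4 genes are named with their values already known. The collagen chaperone gene Serpinh1 measured 530 to 581 FPKM in control and 372 to 511 FPKM in cKO (adjusted p 0.135). The prolyl hydroxylase genes P4ha1 and P4hb, at 41.3 to 43.0 and 378 to 444 FPKM in control, measured 26.9 to 35.1 and 320 to 357 FPKM in cKO (adjusted p 0.0847 and 0.0926). All 3 lay below the controls in every cKO pool without passing. The crosslinking enzyme gene Loxl1 lay above them, at 20.7 to 22.9 FPKM in control and 28.0 to 34.5 FPKM in cKO (adjusted p 0.053). Of the 29 genes tested, 6 lay below the controls in every cKO pool (20.7%) and 4 above (13.8%). Over all genes tested these shares were 12.0% and 18.0%. The genes for making collagen therefore did not share 1 direction, and 15 had a positive and 14 a negative log2 change.

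Of 8 genes tested for collagen receptors and uptake, 1 rose and none fell, and 2.24% and 2.09% of all genes tested are again the shares to read this and the following lists against. Mrc2, an endocytic receptor that takes up collagen fragments, measured 8.45, 8.48 and 9.82 FPKM in control and 18.7, 16.1 and 13.8 FPKM in cKO (log2 change 0.79, adjusted p 0.0241). Among 17 other matrix genes of fibrils and elastic fibres 3 rose (17.6%) and none fell, with a median log2 change of 0.34. The elastin gene Eln rose by 0.81, the fibrillin gene Fbn2 by 0.65 and the fibronectin gene Fn1 by 0.44 (adjusted p 0.024, 0.0498 and 0.0338). Of 15 tested partners of type IV collagen in basement membranes, the laminin gene Lama1 fell by 0.38 (adjusted p 0.0457) and none rose, with a median log2 change of 0.30. Nid1, a linker of laminin and type IV collagen named after its values were seen, measured 48.0 to 53.4 FPKM in control and 62.7 to 87.3 FPKM in cKO (adjusted p 0.0588).

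**Figure D5:**
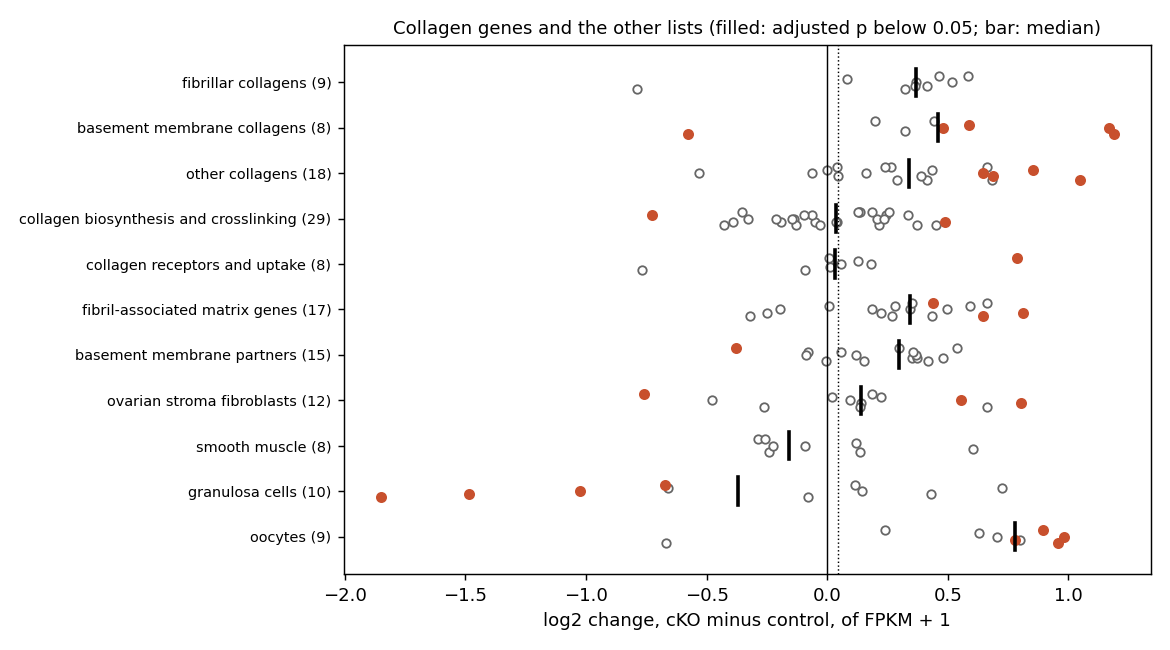
Log2 change (cKO minus control, of FPKM + 1) of every tested gene in the collagen groups and in 8 other lists, with the number tested in parentheses; bars mark medians and the dotted line the median of all genes tested. Medians are 0.37, 0.46 and 0.34 for the collagen groups and 0.04 for collagen biosynthesis and crosslinking.

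The marker lists of cell types went in different directions. Oocyte markers summed to 1228 to 1362 FPKM in control and 1712 to 2646 FPKM in cKO, with 4 of 9 rising. The log2 change was positive for 8 of these and negative for Bmp15 (-0.67), which did not pass. Granulosa cell markers summed to 3143 to 3992 FPKM and 2058 to 2456 FPKM, with 4 of 10 falling. They were not uniformly lower, since 6 had a negative and 4 a positive log2 change. Foxl2 (0.43) and Kitl (0.73) exceeded the controls in every cKO pool without passing. The most abundant members were Inha and Gja1, and both fell. Their mean levels went from 2017 to 1265 (Inha) and from 793 to 387 (Gja1). The 12 stroma fibroblast markers, the cells that make most fibrillar collagen, summed to 616 to 647 FPKM in control and 711 to 914 FPKM in cKO. Their median log2 change was 0.14. Dcn, the gene of the fibril-binding proteoglycan decorin, carried most of the difference between these sums. Without it, left out after its values were seen, the other 11 summed to 447, 449 and 411 FPKM in control and 535, 430 and 449 FPKM in cKO, with overlap. Library cKO 1 was the highest for 6 of the 12, and 4 were highest in a control pool. Of the 12 Pdgfra and Tcf21 rose by 0.81 and 0.55, Fbln1 fell by 0.76 and 9 did not pass. None of the 12 read 0 in any pool, and 2 of them (Dcn and Lum) are also in the list of matrix genes above. Smooth muscle markers overlapped, at 1000 to 1211 and 780 to 1118 FPKM, and of 8 none passed by limma (1 was higher and 1 lower at an unadjusted p below 0.05). For this and the following lists, the shares of all genes tested at that p were 14.5% higher and 9.80% lower. Endothelial markers summed to 144 to 152 FPKM in control and 162 to 178 FPKM in cKO, without overlap, and of 8 none passed by limma (7 had a positive log2 change, 1 with an unadjusted p below 0.05). Theca cell markers overlapped, at 1452 to 1669 and 1501 to 1886 FPKM, and of 7 none passed by limma (6 were positive, 2 with an unadjusted p below 0.05), with a median log2 change of 0.58. Mast cell markers summed to 23.6 to 37.9 FPKM in control and 51.5 to 85.1 FPKM in cKO, with 5 of 6 rising. Surface epithelium markers overlapped, at 120 to 133 FPKM in control and 89.0 (cKO 1), 223 and 150 FPKM in cKO. Blood and skeletal muscle markers overlapped, at 2021 to 6278 and 925 to 4175 FPKM. So did macrophage (35.3 to 44.1 and 37.6 to 46.5 FPKM) and oviduct markers (2.53 to 5.14 and 3.99 to 9.10 FPKM). By limma no gene of these lists passed, of 9, 5, 7 and 4 tested. At an unadjusted p below 0.05, 1 oviduct marker was higher. The part of cell composition in the collagen values was not tested.

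In the whole series 334 genes rose and 312 fell. The split was 254 against 577 with libraries centred on the median, and 541 against 256 when centred on reference genes. Collagen genes split 8 against 1, 5 against 1 and 10 against 0 under the same settings. By an estimate from the FPKM of low genes the libraries held 19.6 to 24.9 M fragments (M, mega), so that 1 FPKM in a transcript of 5 kb stands for about 98 to 125 fragments.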

How the data were processed

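RNA of 6 ovary pools was sequenced on an Illumina instrument, per the labels. The authors deposited FPKM per Ensembl gene. The submitters' processing notes list TopHat2 2.0, Cufflinks 2.0 and mm10 without saying what each did. Annotation, strand setting and scaling: not given in the sources used here. Groups follow the genotype label, and replicate numbers only name libraries. The targeted gene is not reported here.

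Values were compared with limma 3.58.1 (R 4.3.3; lmFit, eBayes with trend) on log2(FPKM + 1), for genes with a mean of at least 0.5 FPKM, with Benjamini-Hochberg adjustment over all 14934 genes tested and a threshold of 0.05. Fold changes on this scale understate those of low genes. "Rose" and "fell" are used of passing genes. No count model was fitted. The procedure was tested on simulated data. The members and lists were chosen with earlier results of these data known. Values in every pool are given for collagen genes that passed, for those whose groups did not overlap at a log2 change of at least 0.3, and for the 6 highest; from pathway lists passing genes were named, at most 4, and marker lists are given by counts and sums. Depth was estimated from FPKM below 0.15 in genes with 1 transcript of at least 1500 bases, each read as 1 fragment. Coordinates (1-based) and exon overlaps came from GENCODE M21, where all 43 collagen genes were found by identifier, and promoters from RefSeq.

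Alternatives were other pseudocounts (0.1, 0.5), filters and scalings, array weights, robust moderation and left-out libraries. Rescaling without mitochondrial genes was added after seeing the data.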

Additional observations from a re-analysis of the deposited data

How the results depend on the processing

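Collagen genes past the threshold kept their sign under all 18 alternatives, but their number did not hold. All calls here are limma's. With no filter on low values (23854 genes) no collagen gene rose or fell, and 4 genes rose and 24 fell in all. At an unadjusted p below 0.05, 20 collagen genes were higher and 2 lower, beside 2442 and 1654 in all. Centring on the median left 5 collagen genes that rose and 1 that fell, beside 254 and 577 in all. Centring on reference genes gave 10 collagen genes that rose and 0 that fell, beside 541 and 256 in all. Array weights gave 16 collagen genes that rose and 2 that fell, with 1041 and 743 in all. With control 3 and cKO 3 left out together 7 collagen genes rose and 0 fell, beside 204 and 267 in all. Comparing the 3 controls with cKO 1 alone, whose label number runs with theirs and whose spread is then assumed to be that of the controls, gave 0 and 0 collagen genes (22 higher and 1 lower at an unadjusted p below 0.05) and 22 and 1 in all. After rescaling without mitochondrial genes 7 collagen genes rose and 0 fell, beside 454 and 306 in all. At an unadjusted p below 0.05, 22 collagen genes were then higher and 3 lower, beside 2798 and 1144 in all. Over fits leaving out 1 library, 0 to 8 collagen genes rose and 0 to 1 fell, and 0 to 307 genes rose and 2 to 353 fell in all. The causes were not tested; left-out fits hold fewer samples.

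Sign changes occurred in 5 collagen genes, all near 0 and none past the threshold. Col14a1 reached -0.091 with quantile normalisation and -0.026 when centred on the median, and -0.13 to 0.23 with 1 library left out. Col16a1 reached -0.022 when centred on the median, and -0.061 to 0.14 with 1 library left out. Col20a1 reached -0.081, -0.065 and -0.17 with quantile normalisation, median centring and array weights, -0.32 against cKO 1 alone, and -0.16 to 0.16 with 1 library left out. Col27a1 ranged from -0.010 to 0.14 with 1 library left out. Col13a1 reached 0.019 when centred on reference genes and 0.086 for cKO 1 alone, and -0.14 to 0.021 with 1 library left out. The median log2 change of collagen genes stayed between 0.29 and 0.59. No paired analysis was possible because replicates carry no number in the labels. Depth limits the low genes: below 1 FPKM, 5 kb of transcript holds at most about 125 fragments.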
